A study of Mus musculus with 221 samples.

Results

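The proneural and neuronal basic helix-loop-helix (bHLH) cascade of the mouse neocortex was followed through 7 genes: Neurog2, Eomes, Nhlh1, Neurod1, Neurod2, Neurod6 and Bhlhe22. They were chosen by name, with earlier results of these data known, and are 7 of the 23244 features in the table. RNA was measured in 221 single cells of the medial neocortex, cut out of C57BL/6J embryos at E18.5, and the labels name no treatment or mutant allele. The cells came from 2 pools of 8 neocortices, with 122 cells in pool 1 and 99 in pool 2. The labels do not tie a cell to an embryo, so the pool is the replicate and cells of a pool share their source.

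Neurogenesis in the dorsal telencephalon runs from radial glia, the neural stem cells, through intermediate progenitors to glutamatergic projection neurons. Proneural bHLH factors bind DNA at E-boxes as dimers with broadly made E proteins, and Id and Hes proteins oppose them. Neurog2 is the proneural factor that starts the glutamatergic programme. Eomes (also called Tbr2) is a T-box factor, not a bHLH protein, and is the usual marker of intermediate progenitors. Nhlh1 and Neurod1 follow in newborn neurons, Neurod2 and Neurod6 (also called Nex) mark postmitotic projection neurons, and Bhlhe22 (also called Bhlhb5) acts in the areal and projection identity of young neurons.

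The 7 genes lie on 6 chromosomes of the mouse assembly GRCm38. Neurog2 (plus strand, chr3:127633135-127635631), Neurod1 (minus, chr2:79452521-79456751), Neurod2 (minus, chr11:98325415-98329648), Neurod6 (minus, chr6:55677822-55681263) and Nhlh1 (minus, chr1:172052292-172057573) each have 2 exons in their annotated protein-coding transcript. Bhlhe22 (plus, chr3:18054174-18057517) has 1 exon, and the longest protein-coding transcript of Eomes (plus, chr9:118478212-118486132) has 6. Neurod1 overlaps Cerkl on the same strand and the lincRNA Gm26755 on the opposite strand, and Eomes overlaps the antisense gene Gm33460. No source used here says that strand was used in counting, so reads of these overlapping genes may be shared and the values of Neurod1 and Eomes are uncertain to that extent. The 250 bases before the start of transcription are shown for the pairs that were most alike across cells below, Neurog2 with Eomes and Neurod2 with Neurod6. They are from RefSeq (GRCm38.p6), written 5′ to 3′ on the gene's own strand, at chr3:127632886-127633135 (plus) for Neurog2, chr9:118477939-118478188 (plus) for Eomes, chr11:98329646-98329895 (minus) for Neurod2 and chr6:55681264-55681513 (minus) for Neurod6. Capitals mark the E-box, CANNTG, which reads the same on both strands.
Neurog2: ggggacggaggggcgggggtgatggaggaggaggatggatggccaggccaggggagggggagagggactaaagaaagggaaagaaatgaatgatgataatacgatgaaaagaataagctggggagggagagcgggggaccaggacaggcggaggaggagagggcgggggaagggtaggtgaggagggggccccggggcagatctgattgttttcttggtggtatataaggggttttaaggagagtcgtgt
Eomes: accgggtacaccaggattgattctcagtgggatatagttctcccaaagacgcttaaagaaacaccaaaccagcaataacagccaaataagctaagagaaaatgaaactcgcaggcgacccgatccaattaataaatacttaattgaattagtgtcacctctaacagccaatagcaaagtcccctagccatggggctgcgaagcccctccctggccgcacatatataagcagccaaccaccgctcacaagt
Neurod2: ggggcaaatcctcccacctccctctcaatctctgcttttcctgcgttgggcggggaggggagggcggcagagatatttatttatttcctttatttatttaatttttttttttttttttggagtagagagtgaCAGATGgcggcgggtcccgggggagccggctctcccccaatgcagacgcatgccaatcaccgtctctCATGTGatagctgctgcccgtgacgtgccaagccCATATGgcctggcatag
Neurod6: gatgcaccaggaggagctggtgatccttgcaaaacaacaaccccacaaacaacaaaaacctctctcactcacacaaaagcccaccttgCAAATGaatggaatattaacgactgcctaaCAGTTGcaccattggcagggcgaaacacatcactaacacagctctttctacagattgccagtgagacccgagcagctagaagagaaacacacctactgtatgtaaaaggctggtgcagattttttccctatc

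Promoter windows of 300 bases (250 before and 50 after the start) were matched for 6 of the 7 genes: Neurog2, Eomes, Nhlh1, Neurod1, Neurod2 and Neurod6. CANNTG occurred 0 times in the windows of Neurog2 and Eomes, 1 time in that of Neurod1, 2 times each in those of Neurod6 and Nhlh1, and 3 times in that of Neurod2. Of 32851 mouse promoter windows of the same length, 72.3% held at least 1 CANNTG and 17.6% held 3 or more. The form CAGATG (or CATCTG on the other strand) was present in the windows of Neurod2, 118 bases before the start, and of Nhlh1, and in 17.2% of all windows. CAGATG is 1 of the sequences counted under CANNTG. A match describes the letters in these windows and nothing more.

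Values are TPM, transcript abundances that are scaled for transcript length and add up to 1000000 in every cell. No value is 0. Each cell has a lowest value, called the floor, of 1.33 to 2.998 TPM (median 1.83), and a gene was counted as detected above it. Between 2146 and 6727 genes per cell lay above it (median 4035). Read numbers are not in the tables used here, so the depth per cell is unknown. Intervals beside shares of cells are exact 95% intervals (Clopper-Pearson) and account for counting error alone. Where a count is 0, the share it allows is 3 cells over the number of cells, not an exact interval. The endothelial markers Cldn5, Pecam1 and Flt1 were at the floor in all 221 cells, whereas at least 1 of 2 measured globin genes was above it in 79 cells. Cell cycle genes differed between the pools: at least 2 of 6 were detected in 16 of 122 cells of pool 1 (13.1%) and in 37 of 99 cells of pool 2 (37.4%).

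The early factors were each found in a minority of cells. Neurog2 was detected in 53 of 221 cells (24.0%, interval 18.51 to 30.2%), in 27 of 122 in pool 1 and 26 of 99 in pool 2. Where detected its level was 1.74 to 924.9 TPM with a median of 58.7 TPM. Eomes was detected in 36 cells (16.3%, 11.7 to 21.8%), 18 in each pool, at 2.54 to 531 TPM with a median of 71.9 TPM. Both genes were at or above 100 TPM in few cells, 18 for Neurog2 and 16 for Eomes. Neurod1 was detected in 83 cells (37.6%, 31.2 to 44.3%), 46 in pool 1 and 37 in pool 2, at 1.91 to 872 TPM with a median of 62.0 TPM. These shares of the pools differed by less than their intervals for all 3 genes.

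Nhlh1, which is made briefly in newly postmitotic neurons, was the rarest factor. It was detected in 3 of 122 cells of pool 1 and in 0 of 99 cells of pool 2, which allows a share of up to 3.03% there. Its values were 11.9, 41.6 and 83.8 TPM. All 3 cells held Neurog2 (51.1, 106 and 143.7 TPM), Eomes (52.1, 531 and 103.8 TPM), Neurod1 (122, 128 and 505 TPM), Neurod2 and Neurod6 as well. The cell with 11.9 TPM passed the interneuron gate described below, held 5 of 7 intermediate progenitor markers, and had all 6 cell cycle genes and 5958 genes above the floor. The other two had 4058 and 3418 genes above the floor.

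Neurod2 and Neurod6 were found in most cells. Neurod2 was detected in 190 cells (86.0%, 80.7 to 90.3%) with a median of 83.0 TPM where detected and a highest value of 482 TPM. Neurod6 was detected in 217 cells (98.2%, 95.4 to 99.5%) and had the highest level of the 7, with a median of 1436 TPM where detected, a highest value of 5637 TPM and 138 cells at or above 1000 TPM. Bhlhe22 was detected in 107 cells (48.4%, 41.7 to 55.2%), but at low levels, with a median of 17.6 TPM and 2 cells at or above 100 TPM. Its share was 54.9% in pool 1 (45.7 to 63.9%) and 40.4% in pool 2 (30.7 to 50.7%), and these intervals overlap. Most cells held 2 to 4 of the 7 factors: 73 cells had 3, 61 had 4 and 38 had 2. A further 22 had 1, 17 had 5, 6 had 6, 1 had all 7 and 3 had none.

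**Figure D1:**
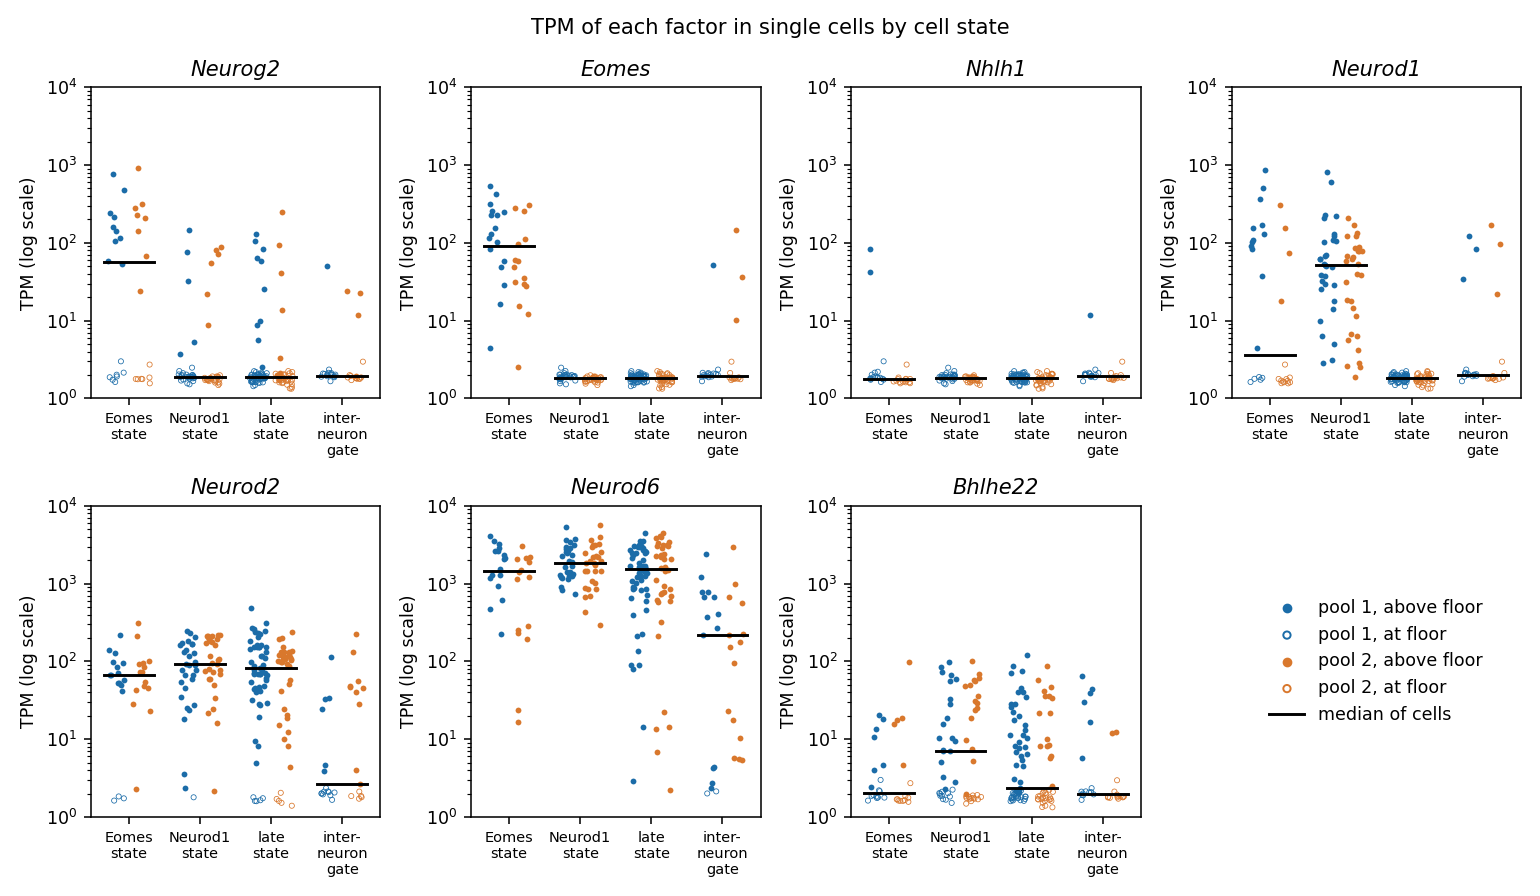
TPM (log axis) of each factor in single cells, grouped by cell state (Eomes state, 32 cells; Neurod1 state, 61; late state, 95) and in the interneuron gate (31 cells); filled points lie above the floor of their cell, open points at it, colours give the pool and bars the median. Eomes and Neurod1 define the states, Neurog2 has a median of 56.4 TPM in the Eomes state against the floor in the others, and Neurod6 is high in all 3 states.

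Cells with an early factor mostly held Neurod2 and Neurod6 too, whereas the early factors were often found without each other. Neurod6 was detected in every cell with Neurog2, Eomes, Nhlh1, Neurod1 or Neurod2. Neurod2 was detected in 33 of 36 cells with Eomes, 50 of 53 with Neurog2 and 82 of 83 with Neurod1, against 86.0% of all cells. These counts were 1.07, 1.10 and 1.15 times the product of the single shares. The overlap with Neurod6 differed little from the product of the single shares (1.02 times it for each of these 5 genes), since nearly every cell held Neurod6. Ordered by the share of their cells that also held Eomes, the factors ran from Nhlh1 (3 of 3 cells) over Neurog2 (37.7%), Neurod1 (21.7%), Neurod2 (17.4%) and Neurod6 (16.6%) to Bhlhe22 (14.02%), against 16.3% of all cells. Neurod1, Neurod2, Neurod6 and Bhlhe22 lay inside the interval of the share of all cells, 11.7 to 21.8%. After Neurog2 the order was not kept in single pools. In pool 1 the shares were 40.7% for Neurog2, 28.3% for Neurod1, 15.1% for Neurod6, 14.7% for Neurod2 and 11.9% for Bhlhe22. In pool 2 they were 34.6% for Neurog2, 20.5% for Neurod2, 18.4% for Neurod6, 17.5% for Bhlhe22 and 13.5% for Neurod1, and Nhlh1 had 0 cells.

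Of the 3 pairs among Neurog2, Eomes and Neurod1, Neurog2 with Eomes had the highest ratio of shared cells to the product of the shares. Both were detected in 20 cells, 2.32 times the 8.63 given by the product of their shares, with ratios of 2.76 in pool 1 and 1.90 in pool 2. Those 20 cells are 37.7% of the cells with Neurog2 and 55.6% of the cells with Eomes. Eomes and Neurod1 shared 18 cells, 1.33 times the product. The pools differed in this pair: 13 of 18 Eomes cells of pool 1 and 5 of 18 of pool 2 held Neurod1, with ratios of 1.92 and 0.74. Neurog2 and Neurod1 shared 22 cells (1.11 times the product, with 1.28 in pool 1 and 0.93 in pool 2), and Eomes and Bhlhe22 shared 15 (0.86 times). Among the 8 combinations of Neurog2, Eomes and Neurod1, none of the 3 was found in 99 cells, Neurod1 alone in 53, Neurog2 alone in 21, Neurog2 with Neurod1 in 12, Neurog2 with Eomes in 10, all 3 in 10, Eomes with Neurod1 in 8 and Eomes alone in 8. Of the 10 cells with all 3, 8 were in pool 1 and 2 in pool 2.

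The levels differed with the combination. Neurog2 had a median of 256 TPM in the 10 cells with Neurog2 and Eomes but without Neurod1, 87.1 TPM in the 10 cells with all 3, 43.7 TPM in the 12 cells with Neurod1 but without Eomes, and 13.5 TPM in the 21 cells with Neurog2 alone. Neurod6 had its lowest median, 452 TPM, in the cells with Neurog2 and Eomes but without Neurod1, and its highest, 2136 TPM, in the cells with all 3. The pools were unevenly mixed in these 2 combinations, with 3 cells of pool 1 and 7 of pool 2 in the former and 8 and 2 in the latter. The part of the pools in the levels of Neurog2 and Neurod6 was not tested. These medians are over 8 to 99 cells per combination and carry no test, since cells of a pool are not replicates.

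**Figure D2:**
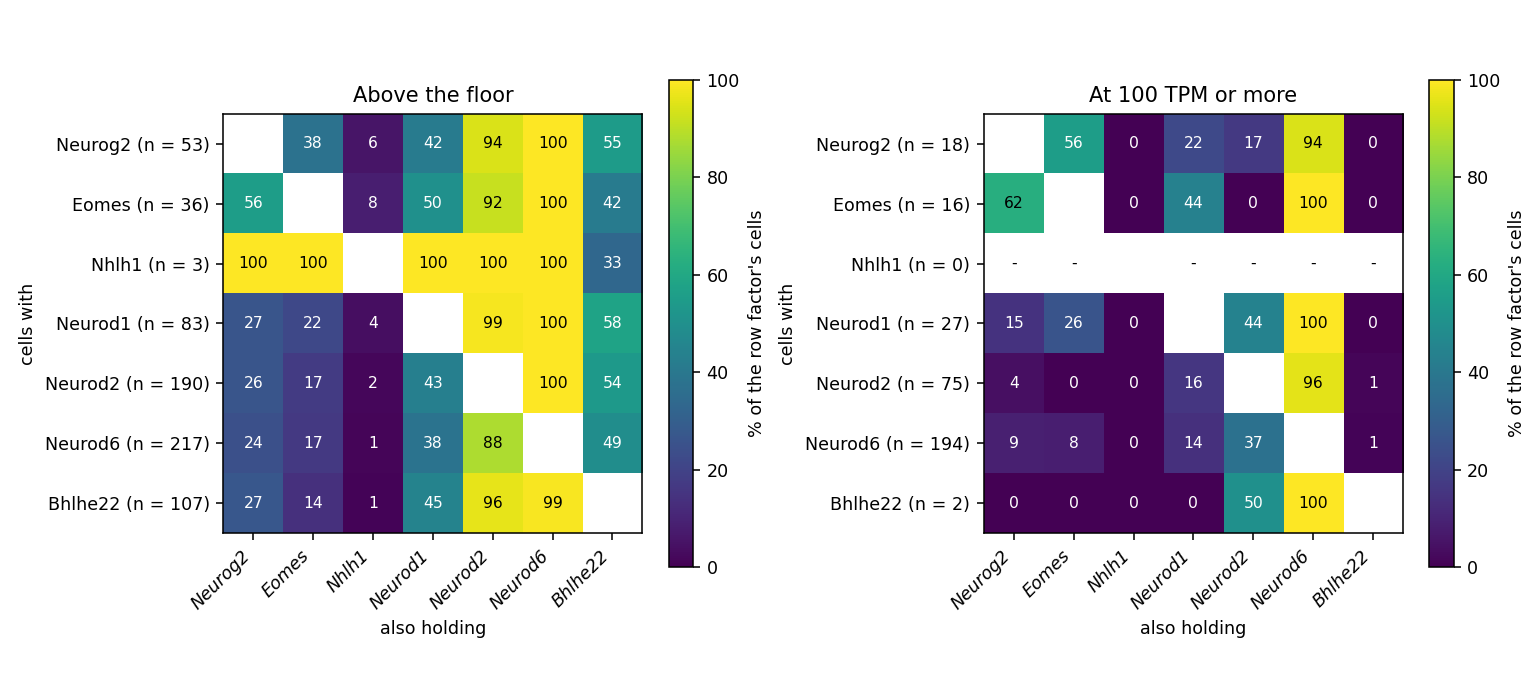
Share of the cells with the row factor that also hold the column factor, over 221 cells, counted above the floor (left) and at 100 TPM or more (right); n is the number of cells with the row factor, and blank cells have no value. Above the floor at least 99.1% of the cells of each other factor also held Neurod6, and at 100 TPM Eomes and Neurod2 share 0 cells.

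Eomes and Neurod2 did not share cells at high levels. A limit of 100 TPM was met by Eomes in 16 cells and by Neurod2 in 75, and by both in 0 cells, against 5.43 from the product of the shares; 0 of 16 allows a share of up to 18.8%, and Neurod2 met the limit in 33.9% of all cells. This held in both pools, with 11 Eomes cells in pool 1 and 5 in pool 2. Neurod2 was nonetheless present in most of these 16 cells, at a median of 53.3 TPM (1.63 to 98.98 TPM), against 72.5 TPM in the other cells. At 50 TPM the gap was gone, with 12 cells above the limit for both genes against 13.3 from the product. Neurog2 and Neurod2 shared 3 cells at 100 TPM against 6.11. Neurog2 and Eomes shared 10 cells at 100 TPM against 1.30, which is 62.5% of the Eomes cells at that level. Neurod6 met the limit in all 16 of the Eomes cells. The limit of 50 TPM and the attention to this pair were chosen after the values were seen.

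**Figure D3:**
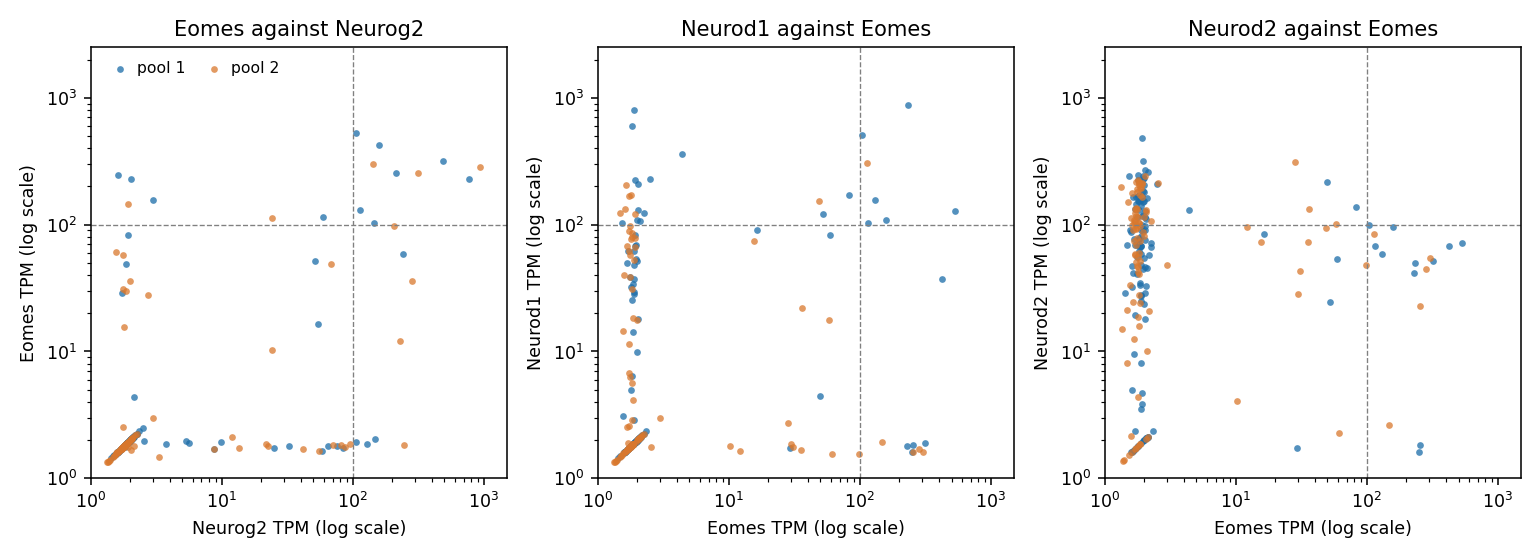
TPM of Eomes against Neurog2, of Neurod1 against Eomes and of Neurod2 against Eomes, 1 point per cell (221 cells, log axes, colours give the pool); dashed lines mark 100 TPM and the diagonal streak is cells at the floor for both genes. In the right panel 0 cells lie above both lines, and in the left panel 10 do.

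Cells were also ordered by a score that uses none of the 7 genes, the mean log2(TPM + 1) of 8 neuronal cytoskeleton and synapse genes (Stmn2, Gap43, Map2, Snap25, Syt1, Tubb3, Mapt and Map1b) minus that of 8 radial glia markers (Slc1a3, Fabp7, Vim, Sox2, Sox9, Mfge8, Aldoc and Ptprz1), outside the interneuron gate (190 cells, median 3.95). Cells with Eomes lay lowest. Their median score was 1.14, with 1.18 in pool 1 and 1.10 in pool 2. The medians then ran 3.65 for Neurog2, 3.99 for Neurod6, 4.04 for Neurod1, 4.08 for Neurod2 and 4.27 for Bhlhe22. Neurod6, Neurod1 and Neurod2 did not keep their order in single pools, with 3.91, 3.90 and 4.04 in pool 1 and 4.09, 4.26 and 4.16 in pool 2. Neurod6 was detected in 188 of the 190 cells and Neurod2 in 174, so their medians had to lie near that of all cells. The quartiles of the Neurog2 cells were 1.75 and 4.30 and those of the Neurod1 cells 2.99 and 5.01. Those of the Eomes cells were -0.69 and 3.35, so neighbours in the order over both pools overlapped in their spread. Counted at 100 TPM the medians were 0.44 for Eomes, 1.54 for Neurog2, 2.84 for Neurod1, 4.06 for Neurod6 and 4.22 for Neurod2. Bhlhe22 then rested on 2 cells.

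Along 5 bins of 38 cells, from low to high score, Eomes was detected in 17, 7, 4, 3 and 1 cells. Neurog2 was detected in 12, 10, 12, 8 and 6 cells. Its mean level was 89.4 TPM in the lowest bin (median 1.82 TPM, highest values 925 and 774 TPM) and 14.2 to 29.7 TPM in the others. Neurod1 was found in 10, 18, 15, 17 and 17 cells. Over both pools its highest mean level was in the second bin (84.8 TPM) and its lowest in the fifth (17.3 TPM). In pool 2 the first bin was lowest (10.2 TPM, against 13.7 TPM in the fifth). The second bin had a Neurod1 median of 2.05 TPM and held cells at 872 and 807 TPM. Neurod2 was found in 26, 36, 38, 38 and 36 cells. Neurod6 averaged 988 TPM in the lowest bin and 1673 to 2113 TPM in the others. Bhlhe22 was found in 10, 17, 22, 28 and 22 cells. Cells with at least 2 cell cycle genes numbered 19, 8, 7, 7 and 3 in the same bins, so cycling genes moved with Eomes, and their part in these counts was not tested.

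**Figure D4:**
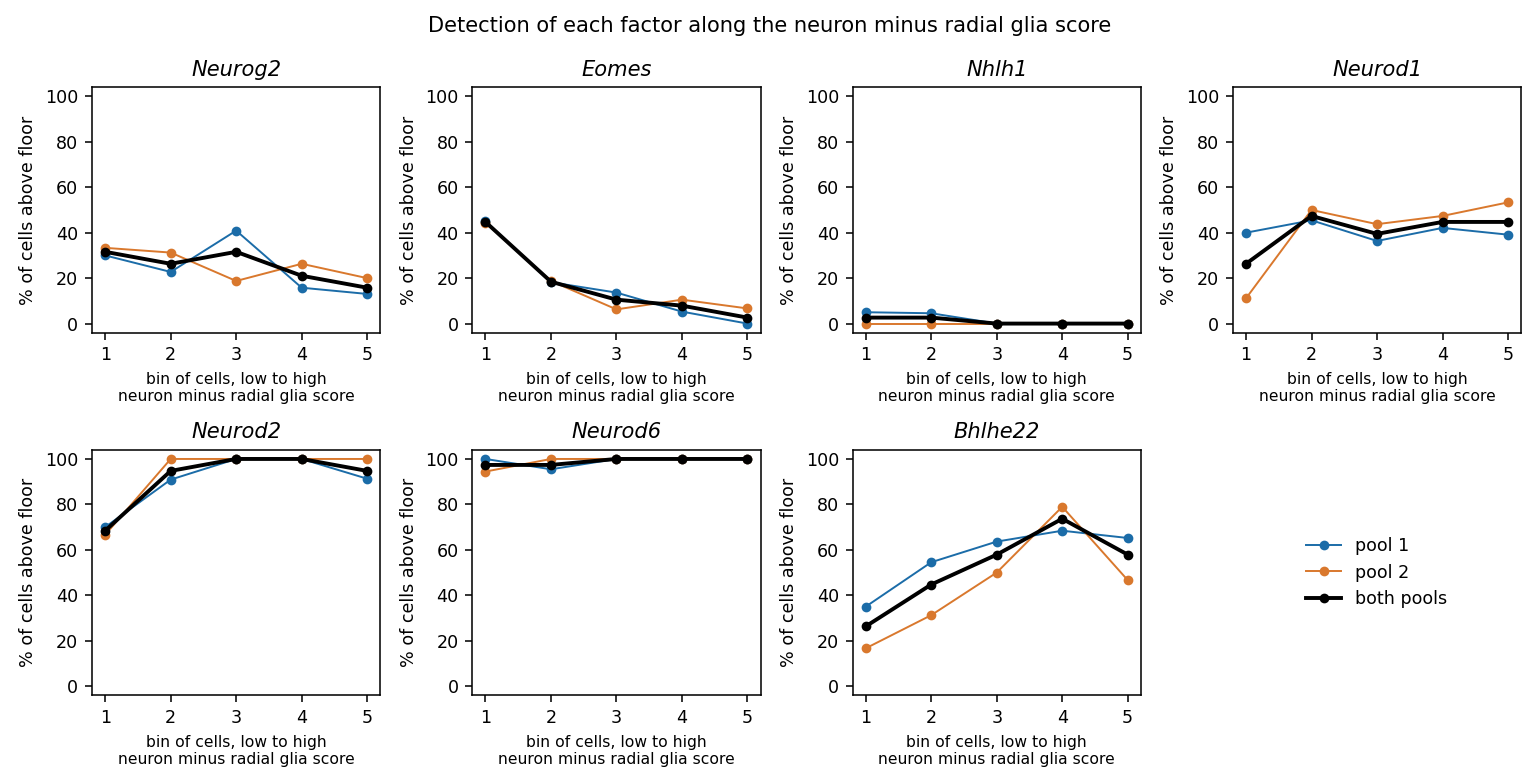
Share of cells in which each factor was above the floor, in 5 bins of 38 cells from low to high neuron minus radial glia score, outside the interneuron gate; black lines join both pools and coloured lines single pools. Eomes is found in 17 cells of the lowest bin and 1 of the highest, while Neurod1, Neurod2 and Bhlhe22 are lowest in the first bin over both pools; for Neurod1 the single line of pool 1 does not show this.

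For a test over pools, cells were sorted by markers that include none of the 7 genes, and a class is called a gate because a few detected transcripts decide it. The gates held 37 cells for radial glia (20 in pool 1 and 17 in pool 2), 60 for intermediate progenitors (34 and 26), 90 for projection neurons (51 and 39) and 31 for interneurons (16 and 15), and 3 cells passed none. They are loose. Of the 60 cells of the intermediate progenitor gate 31 just met its threshold of 3 markers, 57 cells of the data had 2, 32 cells passed more than 1 of the progenitor and interneuron gates, and the radial glia gate had a median of 1012 TPM of the neuronal factor Neurod6. Gates were compared with limma on mean log2(TPM + 1) per gate and pool (n = 2 pools each), and the threshold for a call was an adjusted p of 0.05 (Benjamini-Hochberg over 10715 genes) together with a log2 difference of at least 1. All 4 gates share the estimate of the spread, with 4 residual degrees of freedom. Of the 7 factors 6 entered these fits, since Nhlh1 was detected in under 10 cells.

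None of the 6 factors was called between the intermediate progenitor gate and the radial glia gate. Over all genes 0 were called higher (0%) and 0 lower (0%), while 850 had an unadjusted p under 0.05. Eomes had mean levels of 3.49 in pool 1 and 3.36 in pool 2 in the intermediate progenitor gate, against 2.003 and 1.65 in the radial glia gate (log2 scale). The difference was 1.60 ± 0.31 (SE, limma adjusted p = 0.113). Neurog2 had 3.17 and 3.54 against 2.09 and 1.63, a difference of 1.49 ± 0.33 (limma adjusted p = 0.180). Neurod1 differed by 1.69 ± 0.48, Neurod6 by 1.71 ± 0.42, Neurod2 by 1.13 ± 0.55 and Bhlhe22 by -0.08 ± 0.46. In numbers of cells, Eomes was detected in 24 of 60 cells of the intermediate progenitor gate and 3 of 37 of the radial glia gate, and Neurog2 in 22 of 60 and 6 of 37.

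Gates whose markers were counted only at 100 TPM or more were an alternative chosen after the loose gates had been seen. They held 14 intermediate progenitor cells (9 and 5 per pool), 18 radial glia cells (9 and 9), 76 projection neuron and 19 interneuron cells, and 94 cells passed none. Eomes was detected in 14 of these 94 cells and in 8 of the 14 intermediate progenitor cells. Between the intermediate progenitor and radial glia gates at 100 TPM 37 genes were called higher (0.345%) and 211 lower (1.97%). Neurog2 rose by 4.38 ± 0.65 (limma adjusted p = 0.013), and was detected in 10 of 14 intermediate progenitor cells against 1 of 18 radial glia cells. Neurod6 rose by 3.36 ± 0.75, Neurod2 by 3.23 ± 0.68 and Eomes by 3.08 ± 0.72 (limma adjusted p = 0.040, 0.030 and 0.048). Neurod1 differed by 1.66 ± 0.88 and Bhlhe22 by 0.18 ± 0.53 without a call. Mfng and Mfap4, markers of the intermediate progenitor gate, followed Eomes across the 221 cells (r = 0.55 and 0.52), and Mfap4 followed Neurog2 (r = 0.44). That gate is assigned before the radial glia gate, so the calls for Eomes and Neurog2 are not independent of how cells were sorted. Cell cycle genes fell with the same step, 5 of the 6 being called (Mki67, Top2a, Birc5, Cdk1 and Ccnb1), and their part in the differences was not tested. The opponents Hes and Id gave 1 call, Id3, which fell by 6.09 ± 0.64. The other neural bHLH genes gave 2, the oligodendrocyte lineage factors Olig1 (-3.95 ± 0.62) and Olig2 (-2.14 ± 0.48). The neurogenic programme gave 2 that rose, the small GTPase Rnd2 (3.30 ± 0.66) and the neuronal RNA-binding protein Elavl4 (3.75 ± 0.69). The projection neuron programme gave 1 that rose, Zfp238 (2.95 ± 0.64), and the E proteins gave 0.

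Between the projection neuron gate and the intermediate progenitor gate 0 genes were called higher (0%) and 0 lower (0%), with 496 at an unadjusted p under 0.05, and the same counts of 0 were found with the gates at 100 TPM. Eomes had mean levels of 1.76 and 1.73 in the projection neuron gate, against 3.49 and 3.36 in the intermediate progenitor gate, a difference of -1.68 ± 0.31 (limma adjusted p = 0.259). It was detected in 5 of 90 projection neuron cells against 24 of 60. Neurog2 differed by -1.11 ± 0.33 and Neurod1 by -0.77 ± 0.48. Bhlhe22 differed by 0.72 ± 0.46, Neurod2 by 0.34 ± 0.55 and Neurod6 by 0.26 ± 0.42.

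Interneurons, which migrate into the cortex from the subpallium and are specified by Dlx factors, separated the late factors. Neurod6 fell in the interneuron gate to mean levels of 6.52 and 6.50, against 10.37 and 10.64 in the projection neuron gate, a difference of -3.9997 ± 0.42 (limma adjusted p = 0.000165). Neurod2 fell to 2.66 and 3.97, against 5.93 and 6.51, a difference of -2.91 ± 0.55 (limma adjusted p = 0.014). In this comparison 50 genes were called higher (0.467%) and 50 lower (0.467%), and 2 of the 6 factors were among those called lower. Neurod6 had the largest difference of these 50. The call for Neurod6 was kept under 11 of 11 alternatives and that for Neurod2 under 7 of 11. The Neurod2 call was lost with gates at 100 TPM (-3.55 ± 0.68, limma adjusted p = 0.065), where 16 genes were called higher (0.149%) and 13 lower (0.121%), and Neurod6 alone of the factors was kept (-5.87 ± 0.75). Neurog2, Eomes, Neurod1 and Bhlhe22 were not called, with differences from -0.90 to 0.33. Neurod6 was still above the floor in 29 of 31 cells of the interneuron gate, at a median of 219 TPM, against 89 of 90 cells and a median of 1600 TPM in the projection neuron gate. With gates at 100 TPM it was above the floor in 17 of 19 interneuron cells at a median of 10.3 TPM.

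**Figure D5:**
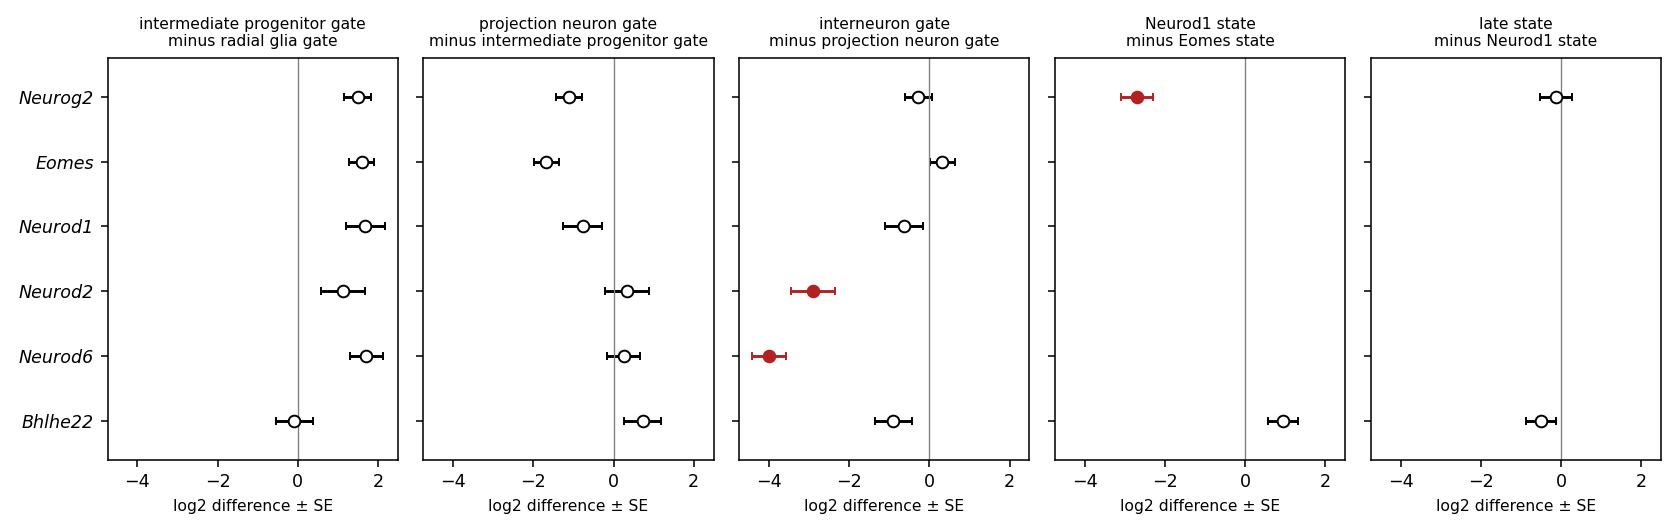
Log2 difference in mean log2(TPM + 1) between cell classes with its SE from limma (n = 2 pools per class), for each factor that could be tested; filled red points passed the call, open points did not. Neurod2 and Neurod6 were called lower in the interneuron gate and Neurog2 lower in the Neurod1 state, with 0 calls in the other 3 comparisons.

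The next comparison asked which of the factors not used to sort cells differed between states set by the others. Outside the interneuron gate, 32 cells with Eomes made an Eomes state (17 in pool 1 and 15 in pool 2), 61 cells with Neurod1 and Eomes at the floor a Neurod1 state (31 and 30), and 95 cells with Neurod2 or Neurod6 but neither of the others a late state (57 and 38). The late state was a mixture of gates. It held 48 cells of the projection neuron gate, 28 of the radial glia gate and 17 of the intermediate progenitor gate. With Eomes and Neurod1 at the floor, Neurod6 above it was enough to enter, so the late state is not simply a later step. The states use Eomes, Neurod1, Neurod2 and Neurod6, so only Neurog2 and Bhlhe22 were tested; the fit held 10711 genes and had 3 residual degrees of freedom. At the edge of detection, the lowest Eomes value counted as detected was 2.54 TPM and the lowest Neurod1 value 1.91 TPM, close to the floor.

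Neurog2 fell in the Neurod1 state relative to the Eomes state. Eomes sorts these states, and over all 221 cells it shared 20 cells with Neurog2, 2.32 times the product of their shares. The fall therefore restates that joint detection and is no separate support for it. Neurog2 was detected in 11 of 61 cells of the Neurod1 state, with means of 10.1 TPM in pool 1 and 12.3 TPM in pool 2. In the Eomes state it was detected in 18 of 32 cells, with means of 139 and 147 TPM. On the log2 scale the pools had 2.04 and 2.26 in the Neurod1 state, against 5.01 and 4.70 in the Eomes state, and the difference was -2.70 ± 0.39 (limma adjusted p = 0.00591). In this comparison 64 genes were called lower (0.598%) and 14 higher (0.131%). With pool and the letter in the cell name as units the call was lost (-2.07 ± 0.62, adjusted p = 0.183), and 8 genes were called. Cells with at least 2 cell cycle genes were 7 of 31 and 6 of 30 in the Neurod1 state, against 2 of 17 and 8 of 15 in the Eomes state, and their part was not tested.

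Neurog2 was not called between the late state and the Neurod1 state. It was detected in 19 of 95 cells of the late state, with means of 10.2 and 12.05 TPM, and the difference from the Neurod1 state was -0.13 ± 0.39 without a call. Bhlhe22 was found in 12 of 32 cells of the Eomes state, 37 of 61 of the Neurod1 state and 50 of 95 of the late state. Its difference was 0.94 ± 0.37 between the Neurod1 state and the Eomes state (limma adjusted p = 0.228) and -0.51 ± 0.37 between the late state and the Neurod1 state, neither called. Between the late state and the Neurod1 state limma called 0 genes higher (0%) and 0 lower (0%), with 257 at an unadjusted p under 0.05. Nhlh1 was detected in 2 of 32 cells of the Eomes state, and in 0 of 61 and 0 of 95 cells of the others, which allows shares of up to 4.92% and 3.16%.

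The genes around the cascade were read from lists. Of the Id, Hes and Hey opponents 7 of 8 were tested, and 1, Hes5, fell in the Neurod1 state relative to the Eomes state. Hes5, a Notch target of progenitors, had a mean of 33.3 TPM in the Neurod1 state against 979 TPM in the Eomes state (-4.17 ± 0.84, limma adjusted p = 0.033). On the log2 scale pools 1 and 2 had 2.43 and 2.90 in the Neurod1 state, against 5.27 and 8.40 in the Eomes state, so the pools of the Eomes state lay far apart. The list had a median difference of -1.21, against -0.07 over all genes tested. The 5 testable other neural bHLH genes, the 3 E proteins (Tcf3, Tcf4 and Tcf12), 10 genes of the neurogenic programme, 8 of the projection neuron programme and 6 cell cycle genes gave 0 calls in this comparison, with medians of -0.57, 0.07, -0.24, 0.87 and -0.98. The E protein Tcf4 was above the floor in all 221 cells at a median of 287 TPM. Neurog1 and Neurod4, a pair of related factors, were rare: Neurog1 was detected in 2 cells and Neurod4 in 5, of which 2 and 4 were in the Eomes state. Hes6, a bHLH protein that opposes Hes1, was detected in 197 cells.

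In the interneuron gate relative to the projection neuron gate, 2 of 8 genes of the projection neuron programme fell. Zfp238 (now Zbtb18), a zinc finger repressor of projection neuron development, differed by -3.75 ± 0.41 and the guidance receptor Nrp1 by -2.71 ± 0.55 (limma adjusted p = 0.00018 and 0.024). With gates at 100 TPM the call for Nrp1 was lost (-3.11 ± 0.71, limma adjusted p = 0.128) and that for Zfp238 was kept. The list median was -1.98, against -0.000255 over all genes. Id2 was the only call of 7 tested opponents and also fell (-2.33 ± 0.34, limma adjusted p = 0.00171). The other lists gave 0 calls there. Between the intermediate progenitor gate and the radial glia gate the 6 lists gave 0 calls, as did those between the projection neuron gate and the intermediate progenitor gate and between the late state and the Neurod1 state; the list of opponents had medians of -1.36, -0.92 and 0.76 in these, against 0.07, -0.07 and -0.02 over all genes.

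The largest differences in the Neurod1 state relative to the Eomes state were named after their values were seen. Higher were Serp2 (3.04 ± 0.42), Ccl27a (2.74 ± 0.38), the microtubule regulator Stmn2 (2.46 ± 0.40), the neuronal transcription factor Myt1l (2.40 ± 0.44), the glutathione transferase Gsto1 (2.40 ± 0.41) and Dab1, an adaptor of Reelin signalling (2.11 ± 0.43). Lower were, after Hes5, the small GTPase Rnd3 (-3.36 ± 0.46), the linker histone H1f0 (-3.23 ± 0.53) and the G protein subunit Gng5 (-3.19 ± 0.40). All of these passed the call, and Gng5 was detected in 41 of 61 cells against 32 of 32.

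The genes most like each factor across the 221 cells were ranked by Pearson's r of log2(TPM + 1) among genes detected in at least 10 cells. These are descriptions over cells that share pools. Eomes and Neurog2 were each other's closest gene (r = 0.55, with 0.59 in pool 1 and 0.51 in pool 2). Next came Mfng (0.55) and Mfap4 (0.52) for Eomes, and Mfap4 (0.44) and 0610007N19Rik (0.38) for Neurog2. Mfng and Mfap4 are among the markers of the intermediate progenitor gate. Neurod1 was closest to Pcp4 (0.42), Sstr2 (0.38) and Nomo1 (0.38). Neurod2 and Neurod6 shared Zfp238 as their closest gene (0.66 and 0.72) and had r = 0.60 with each other; Cd24a (0.57) for Neurod2 and Tagln3 (0.56) for Neurod6 followed. Bhlhe22 had no close gene, with Cd24a at 0.33, Mtss1 at 0.30 and Nrp1 at 0.29. Those of Nhlh1 (Plekha6, Gng11 and Zswim5) rest on 1 or 2 shared cells. Between Neurod2 and the early factors r was -0.03 for Eomes, 0.10 for Neurog2 and 0.24 for Neurod1. With Neurod6 it was 0.03 for Eomes, 0.09 for Neurog2 and 0.29 for Neurod1.

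Markers of Cajal-Retzius cells and of the dentate gyrus, which border or lie in medial cortex, were read as well. Trp73 was detected in 4 cells and Prox1 in 5, of which 3 and 3 held Neurog2 and 1 and 2 held Eomes. At least 1 of 5 Cajal-Retzius markers (Trp73, Reln, Lhx5, Calb2 and Ebf3) was detected in 47 of 221 cells and at least 2 in 1 cell, with a summed level of up to 536 TPM, and Lhx5 was at the floor in all cells.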

How the data were processed

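Single cells were captured on a Fluidigm C1 chip, with SMARTer v4 cDNA and Nextera XT libraries, per the labels' protocols. The TPM values were made by the authors and deposited with a floor in each cell in place of 0. TopHat2 2.0.14, Bowtie2 2.2.6, Cufflinks 2.2.1 and the build mm10 are named in the submitters' processing notes, without parameters. Low values rest on few fragments, and depth per cell is unknown, so only the number of genes above the floor describes it.

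The members, gates, states and gene lists were chosen with earlier results of these data known. By the rule for naming genes, these are the 7 factors, list genes that were called and the 3 genes most like each factor; Tcf4, Hes6, Neurog1, Neurod4, the other cell type markers and the largest differences between states were named after their values were seen. Of 116 symbols, 5 were matched under another name through RefSeq synonyms and 2 were not matched. Interneuron, intermediate progenitor, radial glia and projection neuron gates were assigned in that order, by at least 3 of 8 (among them Gad1, Gad2, Dlx1, Dlx2, Dlx5, Lhx6 and Sp9), 3 of 7 (Insm1, Sstr2, Mfap4, Mfng, Gadd45g, Btbd17, Rhbdl3), 5 of 8 (Slc1a3, Fabp7, Vim, Sox2, Sox9, Mfge8, Aldoc, Ptprz1) and 2 of 8 (among them Tbr1, Fezf2, Bcl11b, Sox5, Mef2c, Slc17a6 and Slc17a7) markers above the floor. Some genes of the lists are not reported here. No doublet caller was run. In an alternative, called without cells in 2 gates, 32 cells that pass more than 1 of the interneuron, intermediate progenitor and radial glia gates were left out. Overlap with the projection neuron gate was not a reason to leave a cell out. Of 43 cells with exactly 2 projection neuron markers, 16 were in that gate.

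Mean log2(TPM + 1) per class and pool, from at least 3 cells, was fitted with limma 3.58.1 in R 4.3.3 (lmFit, eBayes with trend and robust), two-sided, with Benjamini-Hochberg adjustment. Tested genes had to be detected in 10 cells or more, without gate markers, spike-ins and, for the states, the factors that define them. The fit was run on simulated data with shifts larger than the uncalled differences of the factors between the intermediate progenitor and radial glia gates. Its outcome is not given here and cannot say whether differences of that smaller size would be called. The pool pairs the classes by design, since all cells of a pool share its embryos, and correlations between classes in how pool 2 deviated were 0.01 to 0.07. Cells are not animals, and p-values measure the spread between 2 pools.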

Additional observations from a re-analysis of the deposited data

How the results depend on the processing

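The pool is the replicate, with n = 2 per class, and with the pool as a replicate block the calls in all genes numbered 0, 0, 98, 76 and 0 (intermediate progenitor against radial glia gate, projection neuron against intermediate progenitor gate, interneuron against projection neuron gate, Neurod1 against Eomes state, late against Neurod1 state), with 0, 0, 2, 1 and 0 factors among them, so the block changed no call of a factor. Of 274 single-factor values under the alternatives 6 gained a call, 5 lost one and 7 turned in sign, and 256 were counted as kept. The 256 include values with a pool left out, which have no call and were judged by their distance from the main value. That distance lies within the spread between the pools by construction, so these values say nothing about stability. For the rest, direction and side of the threshold were kept. The causes were not tested. With a pool left out each class has 1 profile, so differences could be computed but calls could not.

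Intermediate progenitor against radial glia gate, 0 genes called, had 27 calls without the filter on low genes (1 factor, Eomes), 9 with markers detected at 10 TPM, 6 with 1 marker more per gate, 6 with 1 marker fewer, 248 with gates at 100 TPM (4 factors) and 11 without cells in 2 gates. Bhlhe22 turned in sign there, with 0.0115 from log2 of mean TPM, 0.0136 with 1 marker more, 0.12 with 1 fewer, 0.18 with gates at 100 TPM and 0.16 without cells in 2 gates. Projection neuron against intermediate progenitor gate had 2 calls without the filter (1 factor, Eomes), and Neurod6 turned to -0.23 without cells in 2 gates. Interneuron against projection neuron gate, 100 genes called, had 162 without the filter, and 56 from log2 of mean TPM, 56 at 10 TPM, 29 with 1 marker fewer and 29 with gates at 100 TPM; each of the last 4 kept 1 factor, Neurod6. Neurog2 turned to 0.68 with 1 marker fewer. Neurod1 against Eomes state, 78 genes called, had 47 with log2(TPM + 10), 264 without the filter, 8 (0 factors) with pool and suffix as units and 128 with interneuron gate cells. Late against Neurod1 state had 1 call without the filter.

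The ratios of joint detection moved for Neurog2 and Eomes to 3.25 at 10 TPM and 7.67 at 100 TPM. At 100 TPM they were 3.58 for Eomes and Neurod1, 1.82 for Neurog2 and Neurod1, 1.09 for Neurod2 and Neurod6 (1.06 at 10 TPM), 0 for Neurod1 and Bhlhe22 and 0 for Eomes and Bhlhe22 (1.04 at 10 TPM and 0.72 without interneuron gate cells). Leaving out a pool gave 1.90 to 2.76 for Neurog2 and Eomes, 0.74 to 1.92 for Eomes and Neurod1 and 0.93 to 1.28 for Neurog2 and Neurod1. Median scores at 100 TPM were 1.54 for Neurog2 (3.48 at 10 TPM), 0.44 for Eomes, 2.84 for Neurod1, 4.22 for Neurod2 and 3.91 for Bhlhe22, and 3.49 to 3.67 for Neurog2 with either pool left out. Unknown depth limits all values near the floor, and the loose gates limit the first 2 comparisons. The gates at 100 TPM and the exclusion of cells in 2 gates were chosen after seeing the data.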
